A study of Mus musculus with 10 samples.

Results

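The genes described here are Myc and 34 factors that build ribosomes, 35 of the 23973 genes that carry a unique symbol in the deposited tables. They were taken from a list of symbols and fall into 8 roles: Myc itself, the nucleolar proteins Npm1 and Ncl, RNA polymerase I and its cofactors, the box C/D and the box H/ACA small nucleolar ribonucleoproteins (snoRNPs), the small-subunit processome, large-subunit assembly factors, and a remaining group of Gnl3, Ddx21 and Mybbp1a. All 35 symbols were found and all had reads in every population sequenced. In 34 of them the mean over the 5 populations was at least 50 normalised counts, and the exception was Fbl.

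Ribosomes are assembled in the nucleolus. RNA polymerase I transcribes a long ribosomal RNA precursor there, snoRNPs guide its methylation and pseudouridylation, and a succession of processome and assembly factors cuts, folds and packs it with ribosomal proteins. Myc is a transcription factor that, with its partner Max, binds E-box sequences at many of these genes, and it is known as a driver of ribosome production in growing cells and in mammary tumours.

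The RNA came from female mice whose mammary epithelial cells had been sorted by FACS, and all of them had been given tamoxifen, 15 mg per kg altogether, before cell isolation. The groups were Bsecs, named for Bptf knockout mice alone and not spelled out in the labels; luminal cells of Bptf knockout mice; myoepithelial (basal) cells of both genotypes; and luminal cells of Bptf wild-type mice. Bptf is the scaffold subunit of NURF, a chromatin remodelling complex. Each of the 5 groups had 2 libraries, but the 6 deposited comparison tables hold 1 column of values per group, so no value below has a spread between replicates. The age and strain of the mice, and how the knockout was made, are not stated in the labels.

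Several labels limit what the columns can be read as. The titles of the luminal knockout libraries say knockout while their source label says Bptf wild-type mice, so that column is called KO-labelled luminal below ("KO luminal" in the plots). The basal columns carry opposite genotype names in different tables. They are called smaller basal (2036681 counts in all) and larger basal (2359861 counts), and no genotype direction is read between them. Bptf itself had 699 normalised counts in Bsecs, 757 in KO-labelled luminal, 574 in smaller basal, 772 in larger basal and 587 in WT luminal cells, so total counts of the targeted gene did not separate the labels. Which exons were deleted is not stated in the labels. Totals of the other columns were 3659403 counts in Bsecs, 3840462 in KO-labelled luminal and 2729006 in WT luminal cells, and 11791 to 13957 genes were detected per column.

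Sums of marker genes fitted the luminal and basal labels, while Bsecs had part of each set. Single markers did not all fit. The luminal marker Esr1 was highest in smaller basal cells, at 974 normalised counts, against 29.7 in larger basal cells. It had 446 in KO-labelled luminal and 329 in WT luminal cells. Gata3 had 545 in smaller basal cells, above WT luminal (280) and below KO-labelled luminal cells (686). Summed over 12 luminal markers, the level was 57556 normalised counts in Bsecs, 78542 in KO-labelled luminal, 5140 in smaller basal, 3838 in larger basal and 68679 in WT luminal cells, with Kit at 0 in Bsecs. Summed over 12 basal markers it was 19436 in Bsecs, 1932 in KO-labelled luminal, 51640 in smaller basal, 28694 in larger basal and 1174 in WT luminal cells. Both sums in Bsecs rest on a few genes. The tight-junction gene Cldn4 alone gave 40179.5 of the luminal sum. In Bsecs 8 of the 12 luminal markers were at least 2-fold lower than in KO-labelled luminal cells (median log2 fold −2.67). Prlr had 129 normalised counts in Bsecs, against 8010.3 in KO-labelled luminal and 15438 in WT luminal cells. Epcam and Foxa1 were near the luminal level. Epcam had 6741 in Bsecs, 6158 in KO-labelled luminal and 7719 in WT luminal cells. Foxa1 had 234 in Bsecs, 253 in KO-labelled luminal and 246 in WT luminal cells. It had 0 in smaller and 1.98 in larger basal cells, and passed the adjusted DESeq threshold of the authors' deposited tables over both. The basal sum came nearly all from the keratins Krt14, Krt17 and Krt5 and from Itga6. Of the other basal markers, all but Trp63 were far below the basal columns. Trp63 had 103 normalised counts in Bsecs, near smaller basal (112) and below larger basal cells (386). Acta2 had 148 in Bsecs, against 17096 in smaller and 11955 in larger basal cells. It had 68.4 in KO-labelled luminal and 34.9 in WT luminal cells. Tagln had 183 in Bsecs, against 2992 in smaller and 1432 in larger basal cells. Oxtr, Actg2, Cnn1 and Myh11 had 1, 2, 4 and 19 reads in Bsecs. Basal markers had a median log2 fold in Bsecs of −5.12 over smaller and −4.29 over larger basal cells, with 7 and 8 of 12 at least 2-fold lower and 5 and 4 past the adjusted DESeq threshold of the authors' deposited tables. In sorted bulk samples such as these, fewer cells of a type and less RNA per cell cannot be told apart.

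The ribosome biogenesis genes followed the split between basal and luminal cells, with Bsecs on the basal side. The highest of the 5 columns was smaller basal for 18 members, Bsecs for 14, larger basal for 2 (Fbl and Dkc1) and WT luminal for 1 (Nop10), and it was KO-labelled luminal for 0. Of the 6530 genes with a mean of 50 or more, 21.5% were highest in smaller basal and 23.5% in Bsecs. The shares were 18.4% for larger basal, 18.7% for WT luminal and 17.9% for KO-labelled luminal cells. For 17 members the counting interval of the fold of Bsecs over smaller basal cells held 1, so which of these columns was the higher is not resolved for them. A luminal column was the lowest for 32 members, 16 in KO-labelled luminal and 16 in WT luminal cells, and larger basal was the lowest for the other 3 (Nhp2, Nop10 and Rrp9). Of the 6530 genes, 20.4% were lowest in KO-labelled luminal, 21.7% in WT luminal and 18.5% in larger basal cells. Fbl enters these counts with at most 18 reads in a column, too few to order. Bsecs exceeded both luminal columns for 32 of the 35 members, which left out Myc, Nhp2 and Nop10, beside 42.8% of the 6530 genes with a mean of 50 or more. Both basal columns exceeded both luminal columns for 26 of 35, beside 30.6% of those genes. Bsecs exceeded both basal columns for 14 of 35, beside 38.8%, so on this count Bsecs did not stand above the basal columns. These counts move with the scale: by column totals Bsecs exceeded both luminal columns for 28 members and both basal columns for 3, and with edgeR's TMM factors for 32 and 16. Shares of all genes are not given on those scales, so these counts have no background.

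**Figure D1:**
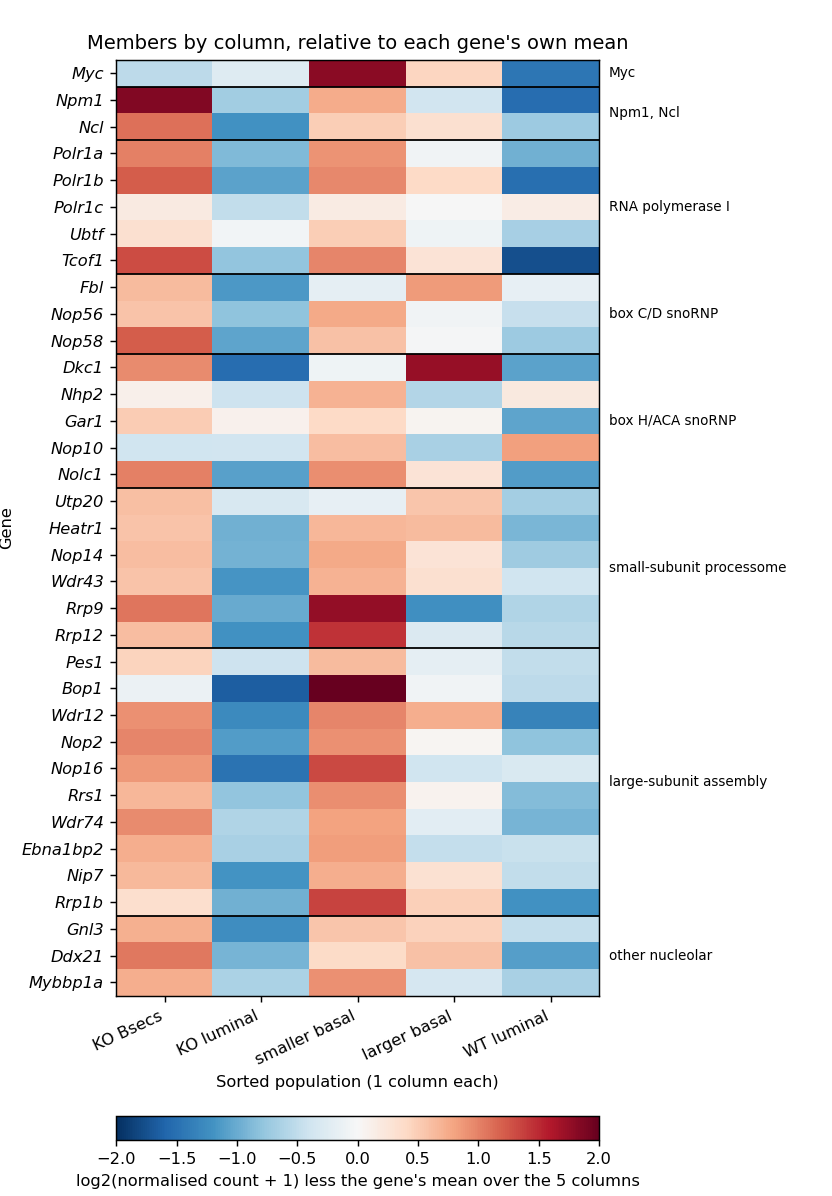
Level of each of the 35 members (rows, grouped by role) in the 5 columns, as log2 of the normalised count plus 1 less the gene's own mean over the columns; red is above and blue below that mean. The luminal columns are mostly blue and Bsecs and smaller basal mostly red, with Myc, Polr1c, Nhp2 and Nop10 among the members that depart from that pattern.

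The luminal columns were also the lowest for the summed reads. The order of Bsecs and smaller basal cells depended on the scale. As normalised counts, the 35 members summed to 42216 in Bsecs and 37492 in smaller basal cells. The sums were 24771 in larger basal, 11745 in KO-labelled luminal and 12272 in WT luminal cells. With Rn45s, the ribosomal RNA precursor locus, left out of the total, the 35 members took 1.57% of counts in Bsecs, 0.489% in KO-labelled luminal, 1.61% in smaller basal, 1.18% in larger basal and 0.548% in WT luminal cells. Ncl and Npm1 carried a large part of these sums. Without them the share was 0.751% in Bsecs, 0.314% in KO-labelled luminal, 1.05% in smaller basal, 0.701% in larger basal and 0.334% in WT luminal cells.

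Levels below are read counts divided by median-of-ratios factors over the 5 columns ("normalised counts"), and they compare columns of 1 gene, not genes with each other. Fold intervals are exact binomial 95% intervals of how a gene's reads split between columns. They cover counting error only, since reads amplified by PCR and carrying no molecular identifier need not be separate molecules. The share of all genes whose interval leaves out 1 is not given here. Counts of members by interval therefore have no background and are not read as a trait of the members.

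Myc was not ordered like the other members. It had 1058 normalised counts in Bsecs (95% Poisson interval 993 to 1126), 1279.9 in KO-labelled luminal (1220.1 to 1342), 5325 in smaller basal (5159 to 5495), 2043 in larger basal (1956 to 2133) and 558 in WT luminal cells (515 to 604). None of these 5 intervals overlapped another, and the order from high to low was smaller basal, larger basal, KO-labelled luminal, Bsecs and WT luminal. Bsecs, where most biogenesis genes were high, therefore held the next to lowest level of Myc. Its fold in Bsecs was 0.199 of smaller basal (0.185 to 0.213), 0.518 of larger basal (0.479 to 0.559), 0.827 of KO-labelled luminal (0.763 to 0.895) and 1.90 of WT luminal cells (1.71 to 2.10). Within the luminal pair it was 2.29-fold (2.09 to 2.52) in KO-labelled over WT luminal cells, and within the basal pair 2.61-fold (2.47 to 2.75) in the smaller over the larger column. The deposited p-values for Myc, unadjusted, ran from 0.0938 in KO-labelled over WT luminal cells to 0.868 in Bsecs over KO-labelled luminal cells in the authors' deposited tables.

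**Figure D2:**
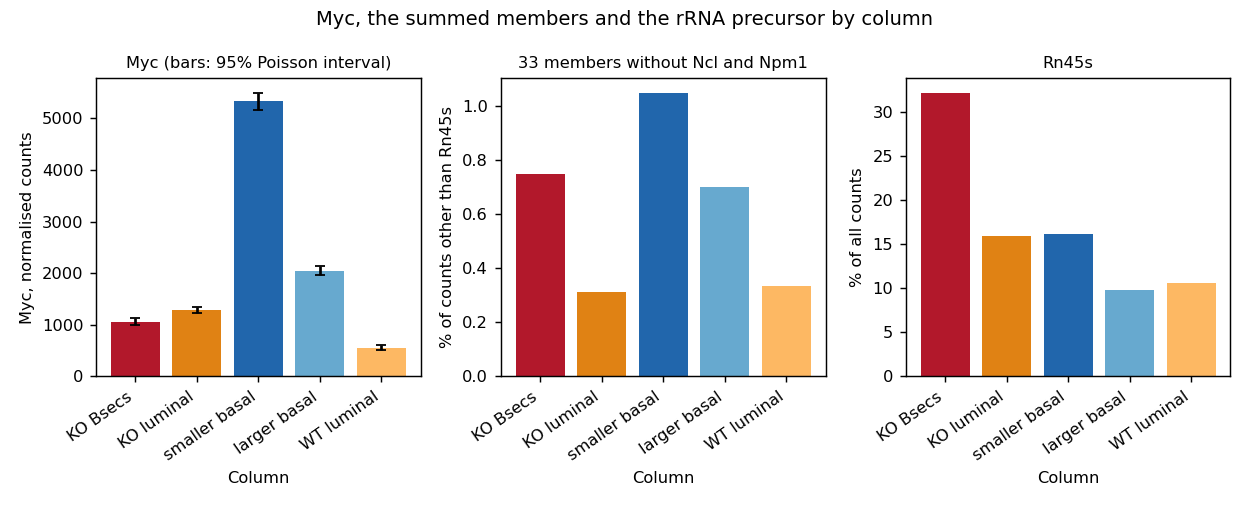
Bars give, by column, the normalised count of Myc with its 95% Poisson interval, the share of counts other than Rn45s taken by 33 members without Ncl and Npm1, and the share of all counts taken by Rn45s. Myc was 1058 in Bsecs and 5325 in smaller basal cells, while the members' share was 0.751% and 1.05% and the Rn45s share 32.2% and 16.2%.

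To show the element Myc is known to bind, the promoters of the members were searched for the canonical E-box CACGTG, a palindrome that reads the same on both strands. RefSeq promoter windows of 300 bases (250 before and 50 after the start of the gene, GRCm38.p6) were held for 28 of the 35 members, and Myc, Npm1, Tcof1, Fbl, Rrp12, Bop1 and Rrs1 had no entry. The motif was in 5 of the 28 windows (17.9%), beside 2187 of 27025 genes (8.09%). The 5 sites are given with 12 bases on either side, or fewer where the window ends, 5′ to 3′ on the strand of the gene and with the E-box in capitals. They lie at chr6:125131811-125131840 (Nop2, plus strand), chr10:88826765-88826789 (Utp20, minus strand), chr11:3963965-3963994 (Pes1, plus strand), chr11:72441355-72441376 (Mybbp1a, plus strand) and chr17:71616220-71616249 (Wdr43, plus strand).
Nop2: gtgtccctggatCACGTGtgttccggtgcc
Utp20: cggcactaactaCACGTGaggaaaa
Pes1: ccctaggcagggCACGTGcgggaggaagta
Mybbp1a: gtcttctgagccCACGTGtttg
Wdr43: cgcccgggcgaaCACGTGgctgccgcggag
The first base of the E-box was 60 bases before the start of Nop2. In the other 4 it lay within the transcribed window, at base 38 of Utp20, 3 of Pes1, 41 of Mybbp1a and 18 of Wdr43. These genes came from 3 of the roles, and a match is a description of the letters and not of binding.

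Npm1, a histone and ribosomal protein chaperone, and Ncl, which binds the ribosomal RNA precursor, both had their highest level in Bsecs. Npm1 had 7685 normalised counts in Bsecs, 1315 in KO-labelled luminal, 3577 in smaller basal, 1622 in larger basal and 742 in WT luminal cells. Ncl had 14339.8 in Bsecs, 2900.4 in KO-labelled luminal, 9432 in smaller basal, 8376 in larger basal and 4057 in WT luminal cells. Smaller basal cells came next for both, and they differed in the luminal pair, where KO-labelled luminal was the higher for Npm1 and WT luminal for Ncl. Npm1 has retrotransposed copies elsewhere in the genome, and the labels do not say how reads shared with them were counted.

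Of the RNA polymerase I group, Polr1a and Polr1b encode its large catalytic subunits, Polr1c a subunit shared with RNA polymerase III, Ubtf the upstream binding factor that opens ribosomal DNA, and Tcof1 (treacle) a nucleolar scaffold for it. Polr1a had 663 normalised counts in Bsecs, 180.0 in KO-labelled luminal, 618 in smaller basal, 317 in larger basal and 169.8 in WT luminal cells. Polr1b had 254 in Bsecs, 51.3 in KO-labelled luminal, 213 in smaller basal, 143 in larger basal and 37.6 in WT luminal cells. Tcof1 had 953 in Bsecs, 221 in KO-labelled luminal, 752 in smaller basal, 464 in larger basal and 112 in WT luminal cells. These 3 genes shared an order: Bsecs, smaller basal, larger basal, KO-labelled luminal and WT luminal, from high to low. For Polr1a and Polr1b the intervals of the fold held 1 between Bsecs and smaller basal cells and between the luminal columns, so those neighbours did not differ beyond counting error. The other 2 were flatter. Ubtf had 424 in Bsecs, 326 in KO-labelled luminal, 477 in smaller basal, 321 in larger basal and 213 in WT luminal cells. Polr1c had 245 in Bsecs, 153 in KO-labelled luminal, 243 in smaller basal, 216 in larger basal and 239 in WT luminal cells, so 4 of its columns lay close together and only KO-labelled luminal was low.

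Box C/D snoRNPs place the 2′-O-methyl groups of ribosomal RNA, with Fbl (fibrillarin) as the methyltransferase and Nop56 and Nop58 as core proteins. Nop58 had 2259.9 normalised counts in Bsecs, 469 in KO-labelled luminal, 1463 in smaller basal, 965 in larger basal and 592 in WT luminal cells. Nop56 had 414 in Bsecs, 158 in KO-labelled luminal, 469 in smaller basal, 264 in larger basal and 201 in WT luminal cells. For both core proteins the luminal columns were the lowest. Fbl was read by only 14 counts in Bsecs, 5 in KO-labelled luminal, 6 in smaller basal, 18 in larger basal and 9 in WT luminal cells, and like Npm1 it has processed copies. Its place in the counts of members rests on those reads.

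Box H/ACA snoRNPs make pseudouridine, with Dkc1 (dyskerin) as the enzyme, Nhp2, Gar1 and Nop10 as its small partners, and Nolc1 as a nucleolar chaperone of snoRNPs. Here the members disagreed. Dkc1 had 255 normalised counts in Bsecs, 45.4 in KO-labelled luminal, 124 in smaller basal, 444 in larger basal and 62.4 in WT luminal cells. Nolc1 had 869 in Bsecs, 203 in KO-labelled luminal, 821 in smaller basal, 523 in larger basal and 200.1 in WT luminal cells. Both were low in the luminal columns, and Dkc1 stood out by its high level in larger basal cells. Nhp2 had 224 in Bsecs, 158 in KO-labelled luminal, 340.2 in smaller basal, 139 in larger basal and 241 in WT luminal cells. Gar1 had 372 in Bsecs, 276 in KO-labelled luminal, 344 in smaller basal, 271 in larger basal and 125 in WT luminal cells. Nop10 had 52.0 in Bsecs, 52.1 in KO-labelled luminal, 105 in smaller basal, 43.5 in larger basal and 121 in WT luminal cells. The 3 small partners thus did not share the enzyme's low in both luminal columns. WT luminal was the highest column for Nop10 and, within counting error of Bsecs, the next highest for Nhp2. KO-labelled luminal was the next to lowest for Nhp2. For Gar1 WT luminal was the lowest column, while KO-labelled luminal was level with larger basal.

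The small-subunit processome assembles on the 5′ part of the precursor; Utp20, Heatr1, Nop14 and Wdr43 are components of it, Rrp9 is the U3 snoRNP protein and Rrp12 acts in later maturation and export of the pre-40S particle. Heatr1 had 1093 normalised counts in Bsecs, 378 in KO-labelled luminal, 1159 in smaller basal, 1136 in larger basal and 388 in WT luminal cells. Nop14 had 753 in Bsecs, 254 in KO-labelled luminal, 829 in smaller basal, 591 in larger basal and 298 in WT luminal cells. Wdr43 had 1437 in Bsecs, 428 in KO-labelled luminal, 1567 in smaller basal, 1213 in larger basal and 736 in WT luminal cells. In these 3 genes Bsecs and the basal columns stood above the luminal columns. For Heatr1 Bsecs and both basal columns, and for Nop14 Bsecs and smaller basal cells, did not differ beyond counting error. Utp20 had 597 in Bsecs, 315 in KO-labelled luminal, 353 in smaller basal, 579 in larger basal and 244 in WT luminal cells. Rrp9 had 262 in Bsecs, 61.0 in KO-labelled luminal, 419 in smaller basal, 52.4 in larger basal and 81.7 in WT luminal cells. Rrp12 had 473 in Bsecs, 132 in KO-labelled luminal, 846 in smaller basal, 252 in larger basal and 210.2 in WT luminal cells. Utp20 was low in smaller basal cells and Rrp9 in larger basal cells, so the basal columns differed between members of 1 complex.

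Among the large-subunit assembly factors, Pes1, Bop1 and Wdr12 form the PeBoW complex needed for maturation of the 28S and 5.8S rRNAs. Pes1 had 294 normalised counts in Bsecs, 163 in KO-labelled luminal, 335 in smaller basal, 191 in larger basal and 154 in WT luminal cells. Bop1 had 137 in Bsecs, 46.9 in KO-labelled luminal, 777 in smaller basal, 141 in larger basal and 103 in WT luminal cells. Wdr12 had 126 in Bsecs, 26.8 in KO-labelled luminal, 131 in smaller basal, 111 in larger basal and 25.7 in WT luminal cells. The partners of this complex therefore had unlike profiles: Bop1 stood out in smaller basal cells, and Wdr12 was level in Bsecs and both basal columns.

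The remaining large-subunit factors are the rRNA methyltransferase Nop2, the 5S particle factor Rrs1, and Nop16, Wdr74, Ebna1bp2, Nip7 and Rrp1b, which act at early or intermediate steps of pre-60S assembly. Nop2 had 594 normalised counts in Bsecs, 139 in KO-labelled luminal, 569.8 in smaller basal, 311 in larger basal and 172 in WT luminal cells. Nop16 had 254 in Bsecs, 49.1 in KO-labelled luminal, 348 in smaller basal, 105 in larger basal and 113 in WT luminal cells. Nop2 was nearly level in Bsecs and smaller basal cells, whereas Nop16 was higher in smaller basal cells. Rrs1 had 178 in Bsecs, 64.0 in KO-labelled luminal, 213 in smaller basal, 118 in larger basal and 60.6 in WT luminal cells. Wdr74 had 409.7 in Bsecs, 138 in KO-labelled luminal, 369 in smaller basal, 183 in larger basal and 110.1 in WT luminal cells. Both had low levels in both luminal columns, which for both genes did not differ beyond counting error. Ebna1bp2 had 612 in Bsecs, 236 in KO-labelled luminal, 659 in smaller basal, 266 in larger basal and 273 in WT luminal cells. Nip7 had 176 in Bsecs, 48.3 in KO-labelled luminal, 187 in smaller basal, 139 in larger basal and 79.9 in WT luminal cells. Rrp1b had 251 in Bsecs, 102 in KO-labelled luminal, 507 in smaller basal, 278 in larger basal and 85.4 in WT luminal cells. For Ebna1bp2 larger basal cells were as low as the luminal columns, while for Nip7 and Rrp1b they were not.

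Gnl3 (nucleostemin) is a nucleolar GTPase, Ddx21 an RNA helicase of ribosomal RNA synthesis and processing, and Mybbp1a a nucleolar regulator of RNA polymerase I. Gnl3 had 844 normalised counts in Bsecs, 219 in KO-labelled luminal, 756 in smaller basal, 712 in larger basal and 369 in WT luminal cells. Ddx21 had 1964 in Bsecs, 499 in KO-labelled luminal, 1238 in smaller basal, 1419 in larger basal and 442 in WT luminal cells. Mybbp1a had 1680.0 in Bsecs, 655 in KO-labelled luminal, 1917 in smaller basal, 804 in larger basal and 648 in WT luminal cells. All 3 had both luminal columns at the bottom, and Ddx21 was highest in Bsecs by a wider margin than Gnl3.

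Bsecs were compared with KO-labelled luminal cells first, where the members' median stood furthest from 0. The median log2 fold of the 35 members was 1.74 (3.35-fold), against a median of −0.25 over all 14778 genes with a read in either column and 0.09 over the genes with a mean of 50 or more. At least 2-fold higher were 27 of 35, beside 23.0% of all genes and 22.4% of genes with a mean of 50 or more, and at least 2-fold lower were 0, beside 32.0% and 20.9%. The counting interval lay above 1 for 33 members, below 1 for Myc and across 1 for Nop10. Npm1 was 5.84-fold (5.55 to 6.16), Dkc1 5.61-fold (4.22 to 7.57) and Nop16 5.17-fold (3.92 to 6.90) in Bsecs over KO-labelled luminal cells. By role, the median log2 fold was 2.43 for Npm1 and Ncl, 1.94 for Gnl3, Ddx21 and Mybbp1a, 1.88 for RNA polymerase I, 1.66 for the small-subunit processome, 1.54 for large-subunit assembly and 0.51 for box H/ACA. Of box C/D, Nop58 was 4.82-fold (4.41 to 5.28) and Nop56 2.61-fold (2.20 to 3.11), and Fbl, with 14 reads against 5, 4.08-fold (1.39 to 14.5). Of the 8 members under 2-fold, 3 were box H/ACA partners (Nhp2, Gar1 and Nop10), and the others were Myc, Polr1c, Ubtf, Utp20 and Pes1. The authors' deposited table gives DESeq p-values, which were Benjamini-Hochberg adjusted over all genes. On them 0 members passed 0.05, beside 6 of 14800 genes (0.0405%), and 0 members were under 0.05 unadjusted. Of 9 fibroblast markers, 7 were at least 2-fold higher and 1 lower in Bsecs over KO-labelled luminal cells (median log2 fold 2.91). Their sum went the other way, 513 normalised counts in Bsecs and 1035 in KO-labelled luminal cells, of which Dcn gave 204 and 1011. The part of these markers in the result was not tested.

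Against WT luminal cells, which share the Bsecs column with the comparison above, the median was 1.37 (2.59-fold), beside −0.15 over all genes and 0.09 over those with a mean of 50 or more. At least 2-fold higher were 26 members, beside 26.8% of all genes and 24.3% of genes with a mean of 50 or more, and 1 member, Nop10, was at least 2-fold lower, beside 31.1% and 21.5%. The interval lay above 1 for 31, below 1 for Nop10 and across 1 for Polr1c, Nhp2 and Fbl. Npm1 was 10.4-fold (9.63 to 11.2), Tcof1 8.51-fold (7.03 to 10.4) and Polr1b 6.74-fold (4.82 to 9.64) in Bsecs over WT luminal cells, and Nop10 was 0.429 of WT luminal (0.302 to 0.602). Median log2 folds by role, Myc apart, ran from 1.04 for box C/D, where it was the fold of Nop56, to 2.60 for Npm1 and Ncl, with RNA polymerase I at 1.96. By the authors' deposited table, members past the adjusted DESeq threshold numbered 0, beside 0.21% of 14304 genes, and Tcof1 alone was under 0.05 unadjusted (p = 0.0333). Of 9 fibroblast markers, 6 were at least 2-fold higher and 1 lower in Bsecs over WT luminal cells (median log2 fold 1.70). Their sum was 513 normalised counts in Bsecs and 840 in WT luminal cells, of which Dcn gave 204 and 797. The part of these markers was not tested.

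**Figure D3:**
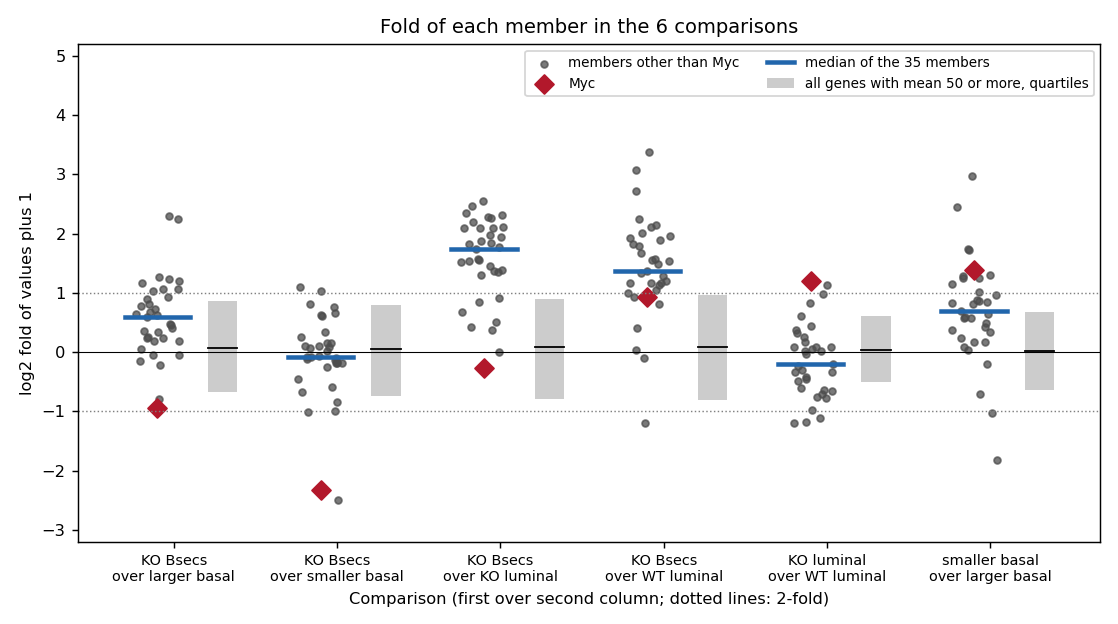
Points are the log2 folds of the 35 members in the 6 comparisons, the diamond is Myc, the blue line the members' median, and the grey bar the quartiles of all genes with a mean of 50 or more with their median. The members' median is 1.74 and 1.37 in Bsecs over the luminal columns, −0.08 over smaller basal, and Myc lies far below it in all comparisons of Bsecs except that with WT luminal cells.

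Set against larger basal cells, Bsecs had the members at a median log2 fold of 0.59 (1.51-fold), beside −0.21 over all genes and 0.08 over those with a mean of 50 or more. With column totals in place of median-of-ratios factors this median turned to −0.17. At least 2-fold higher were 9 members, beside 23.2% of all genes and 21.3% of genes with a mean of 50 or more, and 0 were at least 2-fold lower, beside 29.4% and 17.5%. The count of 9 higher in 35 was close to its background, while the 0 lower lay under it. Rrp9 was 5.0-fold (3.70 to 6.87), Npm1 4.74-fold (4.49 to 5.0) and Nop16 2.42-fold (1.91 to 3.07) in Bsecs over larger basal cells. Lower in Bsecs by the interval were Myc and Dkc1, the second at 0.573 of larger basal (0.488 to 0.673). Markers of other cell types moved with this comparison: 9 fibroblast markers summed to 513 normalised counts in Bsecs and 2652 in larger basal cells, with 8 at least 2-fold lower, and 7 endothelial markers to 9.75 in Bsecs and 247 in larger basal cells, with 6 at least 2-fold lower and 6 at 0 in Bsecs. Their part in the result was not tested. By the authors' deposited table, members past the adjusted DESeq threshold numbered 0, beside 0.48% of 14986 genes, and 0 were under 0.05 unadjusted.

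From smaller basal cells Bsecs hardly differed as a set. The median log2 fold was −0.08 (0.943-fold), beside 0.11 over all genes and 0.06 over those with a mean of 50 or more, and it was 0.017 with edgeR's TMM factors, so it has no stable sign. Npm1 and Dkc1 were at least 2-fold higher, 2 of 35, beside 30.8% of all genes and 20.3% of genes with a mean of 50 or more. Myc, Nop10, Bop1 and Rrp1b were at least 2-fold lower, 4 of 35, beside 26.8% and 19.7%. Both counts were below the background, and 17 of the 35 intervals held 1. Bop1 was 0.176 of smaller basal (0.144 to 0.213) and Npm1 2.15-fold (2.05 to 2.25). By the authors' deposited table, members past the adjusted DESeq threshold numbered 0, beside 0.759% of 13698 genes, and Bop1 alone was under 0.05 unadjusted (p = 0.0491).

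The labels give the comparison within the luminal lineage as knockout over wild type. Myc was higher in it, while the median of the members had no stable sign. Myc had the highest fold of the 35 members, 2.29, while the members' median log2 fold was −0.21 (0.865-fold), beside 0.12 over all genes and 0.04 over those with a mean of 50 or more. That median was 0.021 without the 6 members whose introns host snoRNAs (Ncl, Nop56, Nop58, Dkc1, Gnl3 and Wdr43), which had a median of −0.47 themselves. At least 2-fold higher were Myc and Gar1, 2 of 35, beside 22.4% of all genes and 13.2% of genes with a mean of 50 or more. Nop10, Bop1 and Nop16 were at least 2-fold lower, 3 of 35, beside 16.5% and 10.2%. Gar1 was 2.21-fold (1.81 to 2.71) and Tcof1 1.97-fold (1.59 to 2.46) in KO-labelled over WT luminal cells. Nop10 was 0.430 of WT luminal (0.317 to 0.578), Nop16 0.435 (0.317 to 0.591) and Bop1 0.456 (0.329 to 0.626). The intervals of 14 members held 1, 7 lay above it and 14 below. By the authors' deposited table, members past the adjusted DESeq threshold numbered 0, beside 0.0882% of 14736 genes, and 0 were under 0.05 unadjusted. Of 12 basal markers, 7 were at least 2-fold higher and 1 lower in KO-labelled over WT luminal cells (median log2 fold 1.14). Their sum was 1932 normalised counts in KO-labelled luminal and 1174 in WT luminal cells. Leukocyte markers summed to 156 in KO-labelled luminal and 96.4 in WT luminal cells. The part of these markers was not tested.

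Between the basal columns the members were shifted as a set. Their median log2 fold in smaller over larger basal cells was 0.69 (1.62-fold). The median was −0.31 over all genes and 0.02 over those with a mean of 50 or more. The quartiles of the latter genes were −0.64 and 0.68. Of the 35 members 31 lay above 0, and the share of all genes above 0 is not given here. At least 2-fold higher were 11, beside 19.0% of all genes and 16.4% of genes with a mean of 50 or more, and 2 were at least 2-fold lower, Dkc1 and Fbl, the second on 6 against 18 reads with an interval that holds 1 (0.150 to 1.21), beside 29.6% and 15.1%. Rrp9 was 8.0-fold (5.96 to 10.9), Bop1 5.50-fold (4.57 to 6.65) and Rrp12 3.35-fold (2.89 to 3.89) in smaller over larger basal cells, and Dkc1 was 0.280 of larger basal (0.221 to 0.351). These 4 genes were also the ones under 0.05 unadjusted in the authors' deposited table, the lowest being Rrp9 (p = 0.00244), and 0 passed the adjusted DESeq threshold, beside 0.0274% of 14595 genes. Fibroblast markers moved with this comparison: their sum over 9 genes was 482 normalised counts in smaller and 2652 in larger basal cells, with none at 0 in either and 7 at least 2-fold lower. Endothelial markers summed over 7 genes to 75.2 in smaller and 247 in larger basal cells, with 4 at least 2-fold lower and Emcn and Cldn5 at 0 in smaller basal cells. Their part in the result was not tested.

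**Figure D4:**
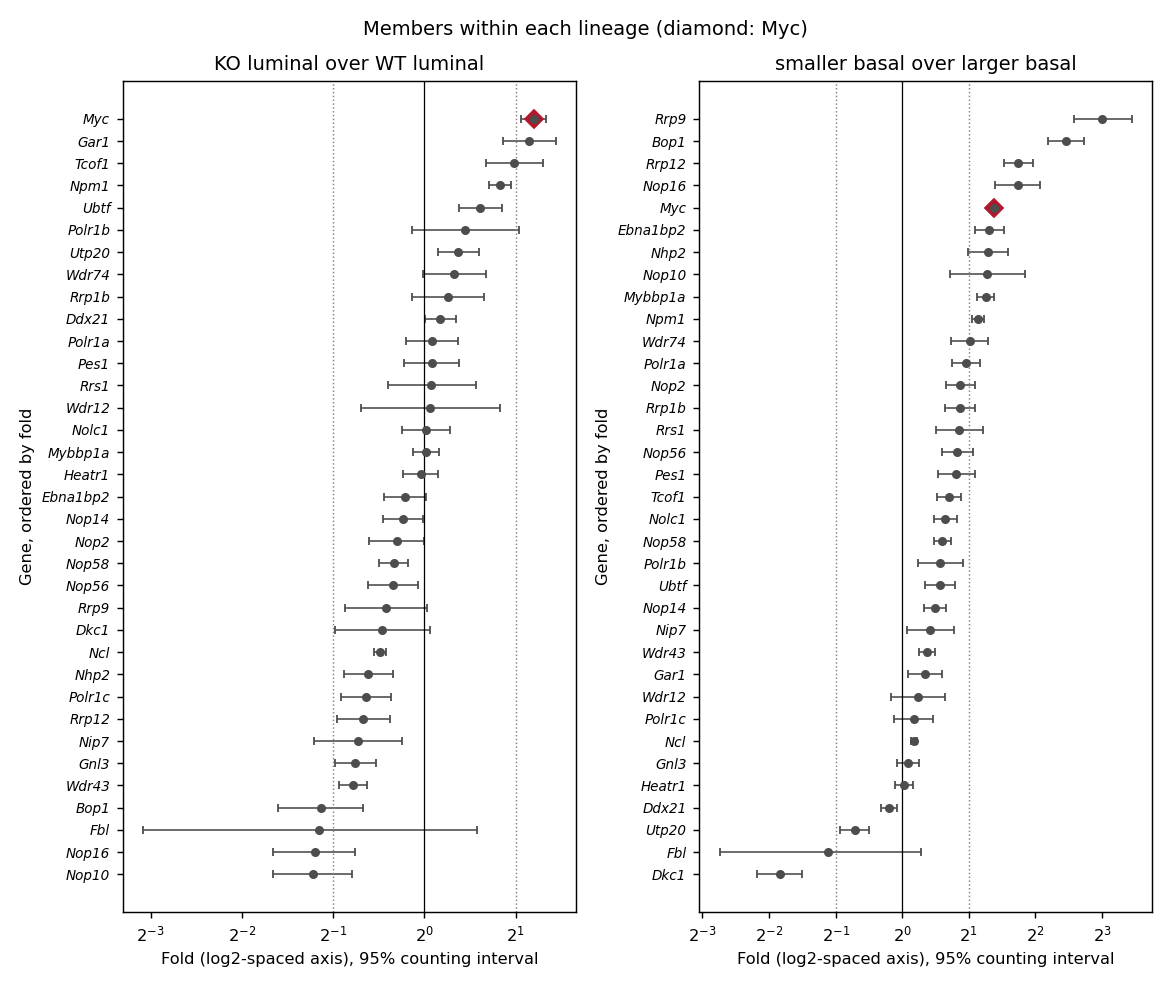
Fold of each member with its 95% counting interval, ordered by size, in KO-labelled over WT luminal cells (left) and in smaller over larger basal cells (right), on axes spaced by log2. On the left Myc is at the top at 2.29 and most members lie near or below 1, and on the right most lie above 1 with Rrp9 at 8.0 and Dkc1 at 0.280.

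GC content of transcripts moved with the folds of all genes. From the lowest to the highest quartile of GC, the median log2 fold of genes with a mean of 50 or more ran from −0.35 to 0.62 in smaller over larger basal cells and from 0.53 to −0.20 in Bsecs over KO-labelled luminal cells. In KO-labelled over WT luminal cells it ran from −0.34 to 0.45. The members are spread over the quartiles as 6, 8, 11 and 10 genes. With the median of each gene's own quartile taken off, the members' median was 1.72 in Bsecs over KO-labelled luminal cells, 1.36 over WT luminal, 0.43 over larger basal (0.42 with quartiles of transcript length) and −0.10 over smaller basal cells. It was −0.12 in KO-labelled over WT luminal cells, against −0.21 without the correction, and 0.60 in smaller over larger basal cells.

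The ribosomal RNA precursor itself took the most reads in Bsecs. Rn45s took 32.2% of counts in Bsecs (exact 95% interval 32.1 to 32.2), 15.9% in KO-labelled luminal (15.9 to 16.0), 16.2% in smaller basal (16.1 to 16.2), 9.76% in larger basal (9.72 to 9.80) and 10.6% in WT luminal cells (10.6 to 10.6). The order differed from that of the biogenesis genes, since KO-labelled luminal cells, low for the members, came close to smaller basal cells, high for them. The locus holds mature as well as precursor rRNA sequence, so these reads do not measure transcription by RNA polymerase I. Scaling by column totals lowers every log2 fold of Bsecs by 0.47 to 0.76 relative to the values above, by 0.19 in KO-labelled over WT luminal cells and by 0.25 in smaller over larger basal cells. Totals without Rn45s lower them by 0.16 to 0.35 for Bsecs, and by 0.10 and 0.15 in the comparisons within lineages.

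Other genes of the pathway, taken from lists of factors outside the 35, were described in the same way, beside the shares of all genes given above: 23.0% at least 2-fold higher and 32.0% lower in Bsecs over KO-labelled luminal cells, and 26.8% higher and 31.1% lower over WT luminal cells. Of 45 other small-subunit processome factors, 25 were at least 2-fold higher and 0 lower in Bsecs over KO-labelled luminal cells (median log2 fold 1.16), and 23 higher and 0 lower over WT luminal cells (1.04). Of 43 other large-subunit assembly factors, 23 were at least 2-fold higher and 1 lower over KO-labelled luminal cells (1.06), and 24 higher and 2 lower over WT luminal cells (1.02). The exosome, which trims the precursor, had 8 of 15 genes at least 2-fold higher and 1 lower over KO-labelled luminal cells (1.12), and 4 higher and 1 lower over WT luminal cells (0.77). Its 4 of 15 over WT luminal cells is at the background. These medians stayed above 0 under every scale tried, and none of these genes passed the adjusted DESeq threshold of the authors' deposited tables. Named by size, Pno1 was at 3.54 and Mphosph10 at 3.26 among the small-subunit factors and Brix1 at 2.84 among the large-subunit factors, as log2 folds of Bsecs over KO-labelled luminal cells. Zfp622, a cytoplasmic large-subunit maturation factor, went the other way at −2.01.

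The remaining RNA polymerase I subunits and factors gave mixed values. Over 16 genes the median log2 fold of Bsecs was 0.23 over KO-labelled luminal cells (−0.24 by column totals) and −0.38 over WT luminal cells, with 6 genes at least 2-fold higher and 3 lower in the first, beside 23.0% and 32.0% of all genes, and 5 higher and 4 lower in the second, beside 26.8% and 31.1%. Taf1d, a subunit of the SL1 promoter factor, was at 2.98 over KO-labelled luminal cells, and Znrd1, a small polymerase subunit, at −1.24. RNA polymerase III, which transcribes the 5S rRNA, had a median over 15 genes of 0.38 over KO-labelled luminal (−0.086 by column totals) and 0.13 over WT luminal cells (−0.52 by column totals). Neither list therefore had a sign over KO-labelled luminal cells that held under every scale.

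mRNAs of the ribosomal proteins were ordered unlike the factors that assemble them. Over 46 cytosolic ribosomal protein genes the median log2 fold was 0.09 in Bsecs over KO-labelled luminal cells, with 6 at least 2-fold higher and 2 lower, both under the shares of all genes, and it turned to −0.36 under column totals and −0.064 under totals without Rn45s. It was 0.61 in Bsecs over WT luminal cells, with 14 higher, near the share of all genes, and 6 lower, and turned under column totals to −0.024. Larger basal cells were their lowest column. The median was 1.15 in Bsecs over larger basal cells, with 27 at least 2-fold higher and 0 lower beside 23.2% and 29.4% of all genes, and 0.82 in smaller over larger basal cells, with 20 higher and 3 lower beside 19.0% and 29.6%. These medians weigh each gene equally, though some had few reads in every column. Rpl5 had 5 to 12 reads, Rpl34 0 to 9 and Rps27 0 to 10, against 3211 to 9087 for Rpl4. The labels do not say how reads shared with copies of a gene were counted. Mitochondrial ribosomal proteins, 46 genes, had medians of 0.44 over KO-labelled luminal (−0.020 by column totals) and 0.036 over WT luminal cells (−0.62 by column totals).

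**Figure D5:**
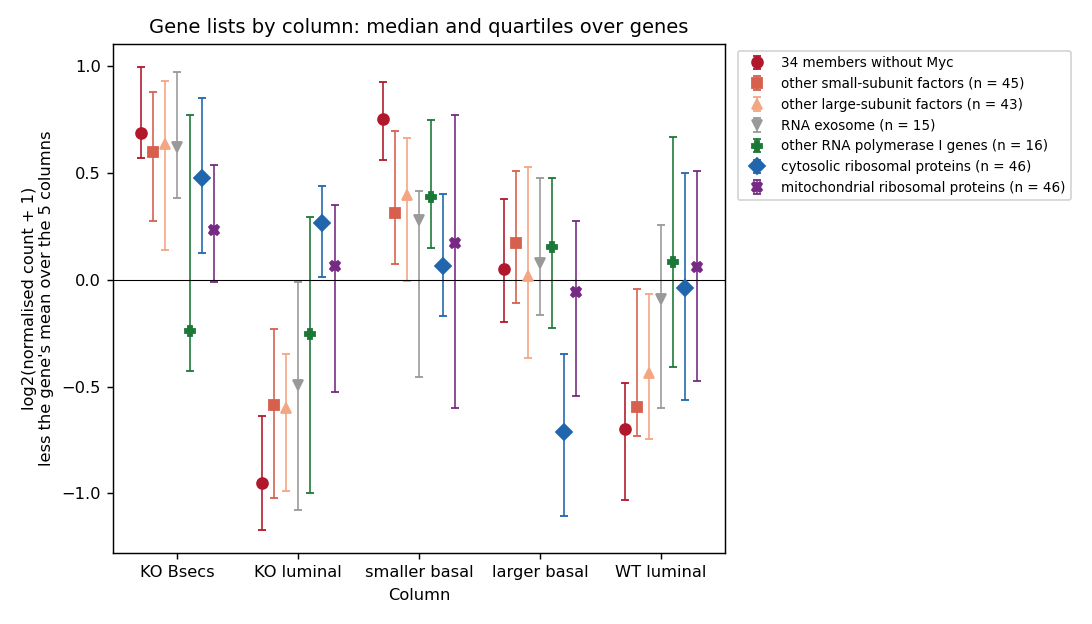
Median and quartiles over genes, by column, of log2(normalised count + 1) less each gene's mean over the 5 columns, for the 34 members without Myc and for 6 lists of other genes. The members are at 0.69 in Bsecs, −0.95 in KO luminal, 0.75 in smaller basal, 0.05 in larger basal and −0.70 in WT luminal cells, while cytosolic ribosomal proteins are at 0.48, 0.26, 0.07, −0.71 and −0.04 in the same columns.

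Around Myc, its network and other known targets gave mixed values. Over 18 genes of the Myc network the median log2 fold of Bsecs was −0.37 over KO-labelled luminal and 0.18 over WT luminal cells (−0.48 by column totals). Max, the partner of Myc, had 859.5 normalised counts in Bsecs, 471 in KO-labelled luminal, 1234 in smaller basal, 996 in larger basal and 313 in WT luminal cells. Pim1, a kinase that cooperates with Myc, had 887 in Bsecs, 109 in KO-labelled luminal, 87.4 in smaller basal, 19.8 in larger basal and 48.6 in WT luminal cells. Max was thus basal-high like most members, while Pim1 was high in Bsecs and passed the adjusted DESeq threshold over larger basal cells in the authors' deposited table. Over 36 other known Myc targets, in metabolism, folding and the cell cycle, 18 were at least 2-fold higher and 2 lower in Bsecs over KO-labelled luminal cells (median 1.05), beside 23.0% and 32.0%, and 16 higher and 6 lower over WT luminal cells (0.85), beside 26.8% and 31.1% of all genes. In KO-labelled over WT luminal cells, where Myc was 2.29-fold, 3 of the 36 were at least 2-fold higher and 7 lower (median −0.11), beside 22.4% and 16.5% of all genes. Ccnd2, the cyclin of that list, had 1659 normalised counts in Bsecs, 12.6 in KO-labelled luminal, 425 in smaller basal, 575 in larger basal and 0 in WT luminal cells.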

How the data were processed

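RNA was amplified with a kit for small inputs (Ovation RNA-seq V2), per the labels' protocols. Tools named in the submitters' processing notes are STAR and DESeq, with build mm9; versions, counter, annotation and strand settings are not stated there. The authors deposited 6 tables with 24000 rows, and each holds, per the file headers, 2 columns of mean signal (read counts as DESeq scales them), a fold-change ratio, its log2 (not used, since it holds spreadsheet errors) and an unadjusted p-value. Deposited means are whole multiples of a step that is constant within a column (100% of values within 0.01 of a count), so read counts were recovered. The steps in a table multiply to 1, as DESeq factors of exactly 2 columns do, so the deposited p-values compare 1 column with 1 column and contain no replicate spread. It is not given whether columns pool the 2 libraries of a group. Columns were followed through the tables by their counts, which gave 5 distinct columns; columns from outside the series numbered 0. Date conversion or duplication affected 27 symbols, which were left out per gene.

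Counts were scaled by median-of-ratios factors over 9791 genes with a read in every column. Log2 folds are of values plus 1. Calls are folds of at least 2 and the deposited p-values after Benjamini-Hochberg adjustment over all genes, at 0.05; these compare sequenced columns, not conditions. The edgeR 4.0.16 exact test with an assumed dispersion of 0.16 was an alternative. Other alternatives were other scales, a pseudocount of 5, a mean of at least 50, and subsets of members; corrections for GC and length were added after the data were seen. GC and length come from the longest GENCODE M21 transcript of a gene. Steps across genes were tested on simulated counts. Members, lists and tests were chosen with earlier results of these data known. Named genes followed a rule: all members, intervals for Myc and up to 3 extremes per comparison, and up to 4 genes per list with the largest folds; Max and single marker genes were named after their values were seen. Of 418 entries in 20 lists, 14 matched no symbol. Python 3.11.15, numpy 2.4.6, pandas 2.3.3, scipy 1.17.1 and R 4.3.3 were used.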

Additional observations from a re-analysis of the deposited data

How the results depend on the processing

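Results were recomputed under the alternatives named with the processing. The medians of the members over the luminal columns and of smaller over larger basal cells kept their sign under every alternative. By column totals, the median log2 fold was −0.17 in Bsecs over larger basal, −0.60 over smaller basal, 1.27 over KO-labelled luminal and 0.71 over WT luminal cells, and 0.44 in smaller over larger basal cells, and members at least 2-fold apart numbered 4 over larger basal and 14 over WT luminal cells. By totals without Rn45s, the median in Bsecs was 0.24 over larger basal (4 members at least 2-fold apart), −0.29 over smaller basal and 1.11 over WT luminal cells. Shares of all genes are not given on these scales, so the counts of members on them have no background. TMM factors gave 0.017 over smaller basal cells, and leaving out snoRNA hosts gave 0.021 in KO-labelled over WT luminal cells. The authors' p-values unadjusted called 1 member over smaller basal, 1 over WT luminal and 4 between the basal columns. The edgeR exact test with its assumed dispersion called Bop1 over smaller basal (1 member, of 1398 genes), Npm1 over KO-labelled luminal (1 of 1650), Npm1, Polr1b and Tcof1 over WT luminal (3 of 1976) and Rrp9 between the basal columns (1 of 350), and 0 over larger basal (1276 genes) and in the luminal pair (226 genes). That the scales shift all folds of a comparison by 1 constant follows from their construction; the cause of the other differences was not tested. No paired analysis was possible because the deposited columns carry no replicate numbers, and no replicate could be left out. Counts limit Fbl, Wdr12 and Nop10 most.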

Other observations

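Genes of the Arf, Mdm2 and p53 pathway, which responds to disturbed ribosome assembly, gave mixed values. Cdkn1a, a cell-cycle inhibitor induced by p53, had 4956 normalised counts in Bsecs, 1354 in KO-labelled luminal, 1081 in smaller basal, 228 in larger basal and 632 in WT luminal cells. Trp53 had 905 in Bsecs, 336 in KO-labelled luminal, 1369 in smaller basal, 713 in larger basal and 398 in WT luminal cells, and so was ordered like the biogenesis genes, while Mdm2 had 211 in Bsecs, 321 in KO-labelled luminal, 228 in smaller basal, 264 in larger basal and 257 in WT luminal cells. Over 11 genes of the list with reads, the median log2 fold of Bsecs was −0.13 over KO-labelled luminal and −0.28 over WT luminal cells. Cdkn1a, Trp53 and Mdm2 were chosen after their values were seen.

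Proliferation genes, 20 in the list, were barely read: their summed counts were 442 in Bsecs, 523 in KO-labelled luminal, 304 in smaller basal, 454 in larger basal and 584 in WT luminal cells. The snoRNAs encoded in introns of the members were read too little to compare, with 56 counts in Bsecs, 33 in KO-labelled luminal, 5 in smaller basal, 40 in larger basal and 12 in WT luminal cells over 11 snoRNAs. Immediate early genes, which respond to stress and handling, had a median log2 fold over 21 genes of 0.98 in smaller over larger basal cells, 1.12 in Bsecs over larger basal cells, −0.77 in Bsecs over KO-labelled luminal cells and 0.22 in KO-labelled over WT luminal cells. In smaller over larger basal cells they were therefore shifted in the same direction as Myc, itself an early-response gene, and as most members. Their part in those values was not tested.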
